A study of Mus musculus with 4 samples.

Results

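The Hox cluster genes were taken as the protein-coding genes of the RefSeq mouse gene table (GRCm38.p6, the assembly of mm10) whose symbol is Hoxa, Hoxb, Hoxc or Hoxd followed by a number, which gave 39 of 21900 protein-coding genes. They lie in 4 clusters, with 11 Hoxa genes, 10 Hoxb genes, 9 Hoxc genes and 9 Hoxd genes. Each cluster was followed as the span from its outermost gene ends extended by 10 kb on either side, and 25 of the 87948 ATAC-seq peaks of the series overlapped these 4 windows. ATAC-seq marks DNA that is open enough for a transposase to enter, and the values are read counts per peak. The libraries came from cardiac tissue of mice at postnatal day 14, labelled P14, with 2 libraries of genotype wild type and 2 of a Carm1 mutant. The design text of the series calls these hearts neonatal. Carm1 places methyl groups on arginines of histones and of transcriptional coactivators. The kind of mutant allele, any Cre driver or cell type it acts in, the sex of the mice and any pooling of hearts are not stated in the labels. No label says that the 2 libraries of a genotype came from separate animals, so p-values measure only the spread between these libraries, which may be technical.

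Hox genes encode homeodomain transcription factors that give cells along the head-to-tail axis their positional identity. Within a cluster the genes stand in the order in which they are used along that axis, from anterior paralog groups with low numbers to posterior groups with high numbers, and Polycomb complexes keep the clusters silent where they are not used while Trithorax and MLL complexes keep them active. In the heart, anterior Hoxa and Hoxb genes such as Hoxb1 and Hoxa3 respond to retinoic acid and mark progenitors of the second heart field and cardiac neural crest during embryonic life.

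The libraries held 15945420 to 19091969 counts in peaks each, and all values below are CPM, that is counts scaled by each library's counts in peaks and edgeR's TMM factor. The heart label was checked against fixed marker genes by looking for a peak within 1 kb of either gene end: 8 of 8 cardiomyocyte markers, 5 of 5 endothelial, 5 of 5 fibroblast and 5 of 5 mural markers had one, and 0 of 5 macrophage and leukocyte markers did. Such a peak was also present at 2 of 5 Schwann and neuronal, 1 of 3 epicardial, 1 of 3 erythroid, 1 of 3 skeletal muscle, 2 of 3 hepatocyte and 1 of 2 adipocyte markers. The hepatocyte sum, without Alb, which had no such peak, was 17.6 and 19.9 CPM in the wild type and 24.0 and 20.9 CPM in the mutant. The summed level of the cardiomyocyte markers was 695 and 670 CPM in the wild type and 830 and 747 CPM in the mutant. The endothelial sum was 114 and 80.8 CPM in the wild type and 76.9 and 71.5 CPM in the mutant, and the adipocyte sum, which rests on Plin1 alone since Adipoq had no such peak, was 7.98 and 9.44 CPM against 18.7 and 14.9 CPM. The part of these marker differences in the Hox results was not tested. The strongest peak at Carm1 itself lay at 90.1 and 89.5 CPM in the wild type and at 91.4 and 95.5 CPM in the mutant (1.04-fold in the fit). Accessibility there checks nothing about the labels, because the altered part of the gene is not known from the labels. Mutant replicate 2 stands apart in one respect that touches the Hox peaks: of 62 peaks in the series whose highest library was at least 5 times the next one, 61 were highest in that library and 1 in wild-type replicate 2.

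Few of the Hox promoters at hand were open in these hearts. RefSeq promoter windows run from 250 bases before to 50 bases after a transcription start. They were at hand for 22 of the 39 Hox genes and gave 24 windows. These genes were 9 of 11 in Hoxa, 3 of 10 in Hoxb, 1 of 9 in Hoxc and 9 of 9 in Hoxd, so the shares rest mainly on Hoxa and Hoxd. A peak overlapped 3 of the 24 windows (12.5%), those of Hoxa5, Hoxd9 and Hoxd3, against 12170 of 21263 protein-coding windows in the whole genome (57.2%). The shares were apart in CpG-rich windows too. Among windows with a GC content of at least 50% and an observed-to-expected CpG ratio of at least 0.6, a peak overlapped 2 of 11 Hox windows (18.2%) and 8607 of 9600 protein-coding windows (89.7%). No test was run on these shares because neighbouring promoters of a cluster are not independent.

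The 5 sequences below are from promoters inside the Hox windows, 3 with bases in a peak and 2 of posterior Hox genes, rich in CpG sites, without any. Each is the 250 bases before the transcription start, read 5′ to 3′ on the gene's own strand from RefSeq (GRCm38.p6), with bases inside an ATAC-seq peak in capitals and all others in lower case. Gm15050 is not a Hox gene but a long noncoding RNA within Hoxa3, on the plus strand at chr6:52172631-52172880. All its 250 bases lie in a peak that was high in mutant replicate 2 alone. That peak was at 1.47 and 0.877 CPM in the wild type and at 1.03 and 15.02 CPM in the mutant. Hoxa5 is on the minus strand at chr6:52204588-52204837, with 71 bases in a peak. Hoxd9 is on the plus strand at chr2:74697513-74697762, with 142 bases in a peak. Hoxd13 is on the plus strand at chr2:74667975-74668224 and Hoxa13 on the minus strand at chr6:52260881-52261130, and neither has a base in a peak.

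Gm15050: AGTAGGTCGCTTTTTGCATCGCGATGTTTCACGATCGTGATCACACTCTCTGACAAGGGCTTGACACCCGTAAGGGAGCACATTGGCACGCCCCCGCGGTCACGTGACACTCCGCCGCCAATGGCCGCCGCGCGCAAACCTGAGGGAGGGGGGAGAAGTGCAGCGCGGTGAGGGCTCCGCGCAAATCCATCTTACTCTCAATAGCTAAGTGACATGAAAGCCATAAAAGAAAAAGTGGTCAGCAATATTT
Hoxa5: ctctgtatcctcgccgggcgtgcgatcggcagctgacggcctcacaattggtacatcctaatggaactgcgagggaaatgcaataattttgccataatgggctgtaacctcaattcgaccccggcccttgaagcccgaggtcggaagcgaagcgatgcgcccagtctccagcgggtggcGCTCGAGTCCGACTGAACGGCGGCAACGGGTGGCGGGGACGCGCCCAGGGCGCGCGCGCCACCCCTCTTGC
Hoxd9: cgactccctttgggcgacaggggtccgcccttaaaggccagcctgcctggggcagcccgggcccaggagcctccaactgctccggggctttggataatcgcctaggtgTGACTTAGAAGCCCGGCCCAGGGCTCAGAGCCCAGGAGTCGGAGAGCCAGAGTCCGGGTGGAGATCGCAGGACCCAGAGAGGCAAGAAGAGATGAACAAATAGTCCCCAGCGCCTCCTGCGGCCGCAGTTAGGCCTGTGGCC
Hoxd13: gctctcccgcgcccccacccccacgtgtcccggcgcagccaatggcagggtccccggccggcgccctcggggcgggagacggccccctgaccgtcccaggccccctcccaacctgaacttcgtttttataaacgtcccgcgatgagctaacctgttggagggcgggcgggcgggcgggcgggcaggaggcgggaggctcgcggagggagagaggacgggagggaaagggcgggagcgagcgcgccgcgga
Hoxa13: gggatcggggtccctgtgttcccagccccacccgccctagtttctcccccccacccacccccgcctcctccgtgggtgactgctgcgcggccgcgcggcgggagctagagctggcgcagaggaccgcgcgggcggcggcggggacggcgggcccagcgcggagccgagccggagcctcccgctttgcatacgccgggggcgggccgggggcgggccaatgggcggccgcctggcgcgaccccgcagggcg

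The closed Hoxa13 stretch has a GC content of 80% with 35 CpG sites, and the closed Hoxd13 stretch 74.4% with 31. The stretches shown with bases in a peak have 63.6% and 28 CpG sites at Hoxa5, 65.2% and 13 at Hoxd9 and 55.2% and 20 at Gm15050. The closed pair was chosen for its richness in CpG: over the 21 Hox stretches whose window overlapped no peak, GC content ran from 40.4% to 80% with a median of 58% and a median of 12 CpG sites, and over the 3 with a peak, Hoxd3 included, from 49.2% to 65.2% with medians of 63.6% and 13. The ranges overlapped. Across the 24 Hox stretches of 250 bases, the letters CCAAT (either strand), the core of the CCAAT box, were in 14 (58.3%), against 33.8% of all 32851 RefSeq promoter stretches of that length. The homeodomain core TAATTA was in 2 Hox stretches (8.33%, against 4.84% of all), the Hox and Pbx joint site TGATTGAT in 2 (8.33% against 0.670%), the Meis letters TGACAG in 2 (8.33% against 15.86%) and the TATA letters TATAAA in 4 (16.7% against 12.4%), each on either strand. None of these motifs contains another, and a match is a description of the letters and not of a bound site.

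Beyond the promoter windows, an annotated start lay within 1 kb of a peak for 6 of the 22 Hox genes with a listed start (27.3%), against 10575 of 17492 protein-coding genes (60.5%). The peak spanned the start itself at Hoxa5 and Hoxd9. At Hoxd3, Hoxa10, Hoxb4 and Hoxd13 the peak began inside the gene, 44, 184, 243 and 366 bp past the start, so that these genes had an open stretch behind a start that was itself outside the peak. Counting either end of the gene, which also takes in genes without a listed start, 12 of 39 Hox genes (30.8%) had a peak within 1 kb, against 13317 of 21900 protein-coding genes (60.8%). Hoxa5 and Hoxa6 share one of these peaks.

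**Figure D1:**
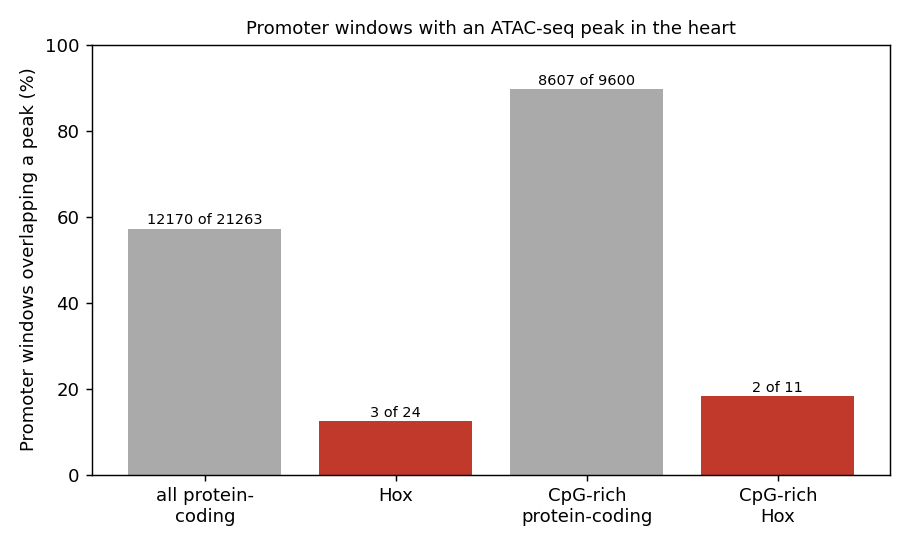
Percentage of RefSeq promoter windows (250 bases before to 50 bases after a start) that overlap an ATAC-seq peak, with the counts above each bar. Red bars are Hox windows and grey bars all protein-coding windows, the right pair limited to CpG-rich windows: 3 of 24 Hox windows against 12170 of 21263, and 2 of 11 against 8607 of 9600.

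The 25 Hox peaks were narrow and shallow, but about as dense along the chromosome as elsewhere. Their median width was 399 bp against 533 bp over all peaks, and their median level was 4.03 CPM, with a range from 2.18 to 13.5 CPM, against a median of 5.54 CPM over all peaks. Only 3 of the 25 stood above that series median, and 22 below it. Per kb of peak the median Hox level, 10.2 CPM, was near the 10.4 CPM of all peaks. The windows held 4.37 peaks per 100 kb, against 3.32 over the genome.

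The clusters differed in how many peaks they held and where these stood. Hoxa, the most peak-rich cluster, had 9 peaks in 126 kb, or 7.17 per 100 kb, covering 3.497% of its window. Hoxd had 7 peaks (5.99 per 100 kb, 2.27% of the window), Hoxb had 6 (3.09 per 100 kb, 1.42%) and Hoxc had 3 (2.21 per 100 kb, 0.876%). Flanking stretches of 200 kb on each side of these windows held 3.25, 3.5, 5.75 and 3.25 peaks per 100 kb around Hoxa, Hoxb, Hoxc and Hoxd. Hoxa and Hoxd thus had more peaks per length than their flanks, Hoxb slightly fewer and Hoxc clearly fewer, with no test of these densities. The flanks also held far stronger peaks by the mean over the libraries. The strongest reached 54.8 CPM beside Hoxa, 105 beside Hoxb, 118 beside Hoxc and 28.4 beside Hoxd. No peak inside a Hox window had a mean above 13.5 CPM.

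Along Hoxa, peaks ran from the anterior side to beyond Hoxa13 at the posterior end, as the map of the clusters shows. In Hoxb they ran from Hoxb2 to Hoxb8, with none within 1 kb of Hoxb9 or Hoxb13 or in the long stretch between these, and none near Hoxb1, whose start lay 12081 bp from the nearest peak. In Hoxc 2 peaks lay within Hoxc6 and 1 between Hoxc8 and Hoxc9, 35.3 to 49.3 kb from the Hoxc4 side, and no peak overlapped or lay within 1 kb of the 5 posterior genes Hoxc9, Hoxc10, Hoxc11, Hoxc12 and Hoxc13. In Hoxd the anterior end was empty, with the nearest peak 32601 bp from the start of Hoxd1, and peaks stood at Hoxd3, at Hoxd9 and at Hoxd13 with the stretch beyond it, but not at Hoxd10, Hoxd11 or Hoxd12. By paralog group, a gene-end peak was present at 3 of 8 anterior genes (groups 1 to 3), 5 of 15 central genes (groups 4 to 8) and 4 of 16 posterior genes (groups 9 to 13). By cluster it was present at 5 of 11 Hoxa, 3 of 10 Hoxb, 1 of 9 Hoxc and 3 of 9 Hoxd genes. The 5 miRNA genes of these windows, Mir196b, Mir196a-1, Mir10a, Mir196a-2 and Mir10b, had no peak over them, and Mir10a, within Hoxb3, was the closest to one at 1236 bp.

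**Figure D2:**
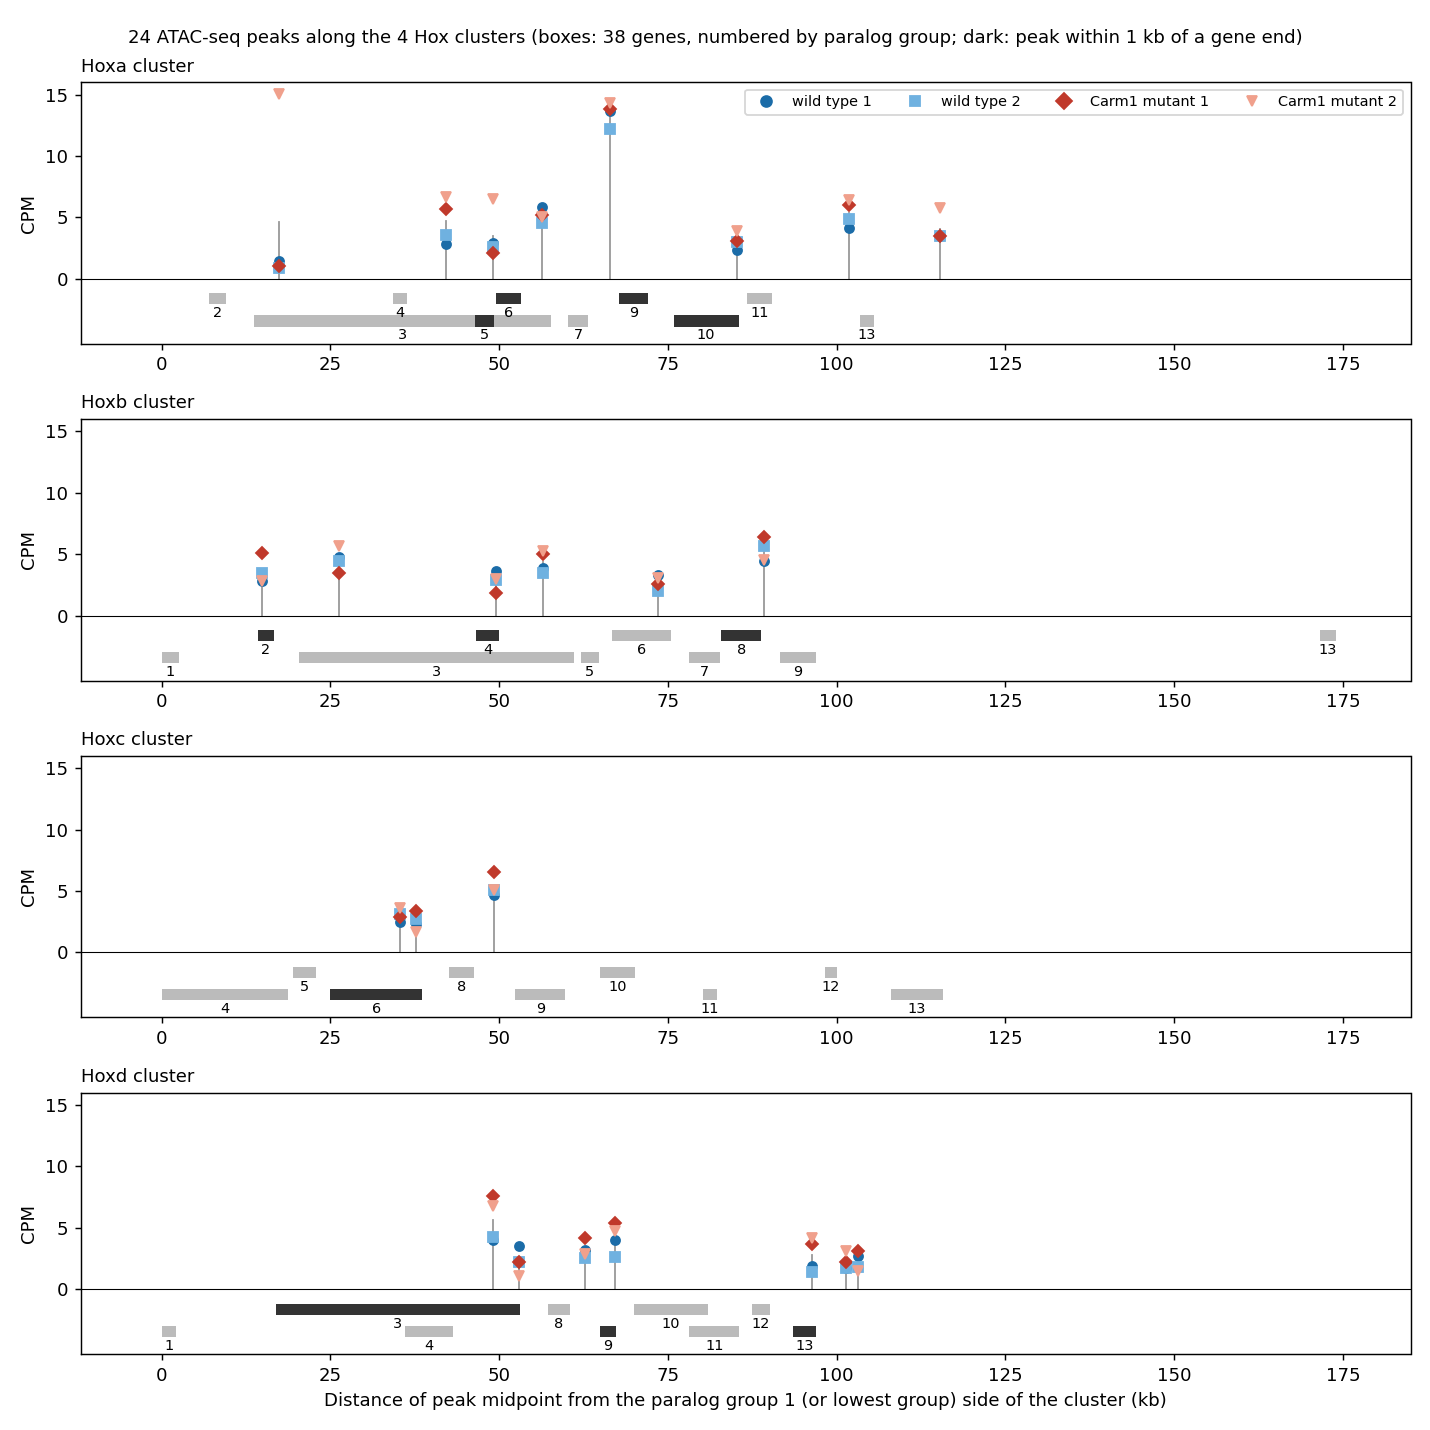
24 peaks and 38 genes along the 4 Hox clusters, drawn from the side of the lowest paralog group, with the midpoint of each peak in kb on the horizontal axis and its CPM in each of the 4 libraries on the vertical axis (grey line: mean). Boxes are the genes, numbered by paralog group, dark where a peak lies within 1 kb of a gene end. Peaks run along most of Hoxa, stand only in the middle of Hoxc, and leave the Hoxd1 side empty.

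Among the anterior members of the Hoxa cluster, Hoxa3, which acts in the pharyngeal arches and their neural crest, had 2 peaks by nearest gene end. One lies inside the gene, 1150 bp past its listed start and over the antisense RNA Hoxaas3. It was at 5.83 and 4.54 CPM in the wild type and at 5.17 and 5.05 CPM in the mutant (log2 fold change -0.02 ± 0.28, edgeR adjusted p = 0.980). Both mutant values fell between the wild-type ones.

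The other Hoxa3 peak, chr6:52172513-52172887, is the one over the start of Gm15050 printed above, and it was open in one library. Raw counts were 26 and 17 in the wild type, 17 in mutant replicate 1 and 238 in mutant replicate 2, or 1.47, 0.877, 1.03 and 15.02 CPM. Only mutant replicate 2 was high, 10.2 times the next library, while mutant replicate 1 lay between the wild-type libraries. A ratio that large was found at 5 of the 87948 peaks, and mutant replicate 2 was the high library at all 5. The fit called this peak higher in the mutant (log2 fold change 2.77 ± 0.67 SE, edgeR adjusted p = 0.0211), but without mutant replicate 2 the log2 change was -0.17 (edgeR adjusted p = 0.889), without wild-type replicate 2 edgeR's adjusted p was 0.0519, and DESeq2 gave an adjusted p of 0.401. It is therefore reported as a value of one library.

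Central Hoxa genes held 2 peaks by nearest gene end, both of Hoxa5, a regulator of lung and axial patterning. The peak at chr6:52197344-52197643, 4111 bp beyond the end of Hoxa5 and inside the Hoxa3 span, lay at 2.83 and 3.56 CPM in the wild type and at 5.72 and 6.62 CPM in the mutant. Both mutant libraries stood above both wild-type ones (log2 fold change 0.95 ± 0.29 SE), and the edgeR adjusted p of 0.0623 missed the threshold of 0.05. Without mutant replicate 1 it passed (edgeR adjusted p = 0.0417). The peak over the Hoxa5 start lay at 2.89 and 2.58 CPM in the wild type and at 2.07 and 6.50 CPM in the mutant (log2 fold change 0.64 ± 0.41, edgeR adjusted p = 0.375). Here the 2 mutant libraries stood on either side of the wild type: the log2 change was 1.25 (edgeR adjusted p = 0.0137) without mutant replicate 1 and -0.40 (edgeR adjusted p = 0.638) without mutant replicate 2.

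Posterior Hoxa genes held the strongest Hox peak of all. It lies at chr6:52221328-52222210 between Hoxa7 and Hoxa9, 2755 bp before the Hoxa7 start and 887 bp from the end of Hoxa9, genes of the central and posterior trunk that also act in blood progenitors. It lay at 13.6 and 12.2 CPM in the wild type and at 13.8 and 14.3 CPM in the mutant. The 4 libraries were within a narrow band, differing by 0.12 ± 0.20 SE on the log2 scale (edgeR adjusted p = 0.782). At Hoxa10, a regulator of uterine and lumbar development, the peak lay at 2.38 and 2.99 CPM in the wild type and at 3.10 and 3.85 CPM in the mutant (log2 fold change 0.37 ± 0.34, edgeR adjusted p = 0.573). The 2 peaks nearest Hoxa13, a gene of the distal limb and hindgut, differed between genotypes by 0.46 ± 0.27 and 0.41 ± 0.32 on the log2 scale (edgeR adjusted p = 0.342 and 0.490). At all 4 of these posterior Hoxa peaks both mutant libraries lay above both wild-type libraries, as at 25.8% of all peaks, with none past the threshold. The separation was narrow at the Hoxa9 peak and at the Hoxa13 peak 9525 bp from the gene. The latter lay at 3.45 and 3.46 CPM in the wild type and at 3.47 and 5.74 CPM in the mutant. Without mutant replicate 2 its log2 change was 0.0052.

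None of the 6 Hoxb peaks passed the test. At Hoxb8, a central trunk gene, the peak 301 bp outside the gene span was the densest Hox peak, at 19.6 CPM per kb, and lay at 4.41 and 5.63 CPM in the wild type and at 6.39 and 4.54 CPM in the mutant (log2 fold change 0.12 ± 0.29, edgeR adjusted p = 0.854). At Hoxb2, an anterior hindbrain gene, the peak also covers the start of the antisense RNA Hoxb3os and lay at 2.83 and 3.46 CPM against 5.11 and 2.78 CPM (0.33 ± 0.34 on the log2 scale, edgeR adjusted p = 0.633). In both peaks one mutant library was the highest of the 4 and the other was close to the lower wild-type value. At Hoxb4, which acts in the hindbrain and in blood stem cells, the peak lay at 3.62 and 2.89 CPM in the wild type and at 1.82 and 2.97 CPM in the mutant, with the genotypes overlapping and the largest negative change of the cluster (-0.44 ± 0.36, edgeR adjusted p = 0.519). Of the 2 peaks assigned to Hoxb3, an anterior gene whose span also covers Hoxb4, the one at chr11:96311612-96312026 lay at 3.90 and 3.46 CPM against 4.99 and 5.24 CPM, without overlap (0.47 ± 0.29, edgeR adjusted p = 0.364), and the other at chr11:96341647-96342328 lay at 4.75 and 4.44 against 3.47 and 5.68 CPM (-0.01 ± 0.31, edgeR adjusted p = 0.992). The Hoxb6 peak had overlapping libraries, at 3.28 and 1.96 CPM in the wild type and 2.55 and 3.03 CPM in the mutant (0.09 ± 0.37, edgeR adjusted p = 0.916).

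In Hoxc, the peak 2685 bp from Hoxc8, a gene of the thoracic trunk, toward Hoxc9 was the strongest at 4.70 and 5.11 CPM in the wild type and 6.51 and 5.05 CPM in the mutant (log2 fold change 0.24 ± 0.28, edgeR adjusted p = 0.675). The 2 peaks within Hoxc6, its neighbour in thoracic identity, had mean levels of 3.01 and 2.50 CPM and differed by 0.21 ± 0.34 and -0.0034 ± 0.39 on the log2 scale (edgeR adjusted p = 0.783 and 0.998). The genotypes overlapped at all 3 Hoxc peaks.

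The Hoxd cluster held the one called Hox peak at which both mutant libraries were high. At Hoxd13, the most posterior gene of its cluster and a regulator of digits and the urogenital tract, the peak chr2:74668591-74668969 inside the gene had raw counts of 34 and 27 in the wild type and of 61 and 66 in the mutant. In CPM these were 1.92 and 1.39 (mean 1.66 ± 0.375 SD, n = 2) against 3.71 and 4.16 (mean 3.94 ± 0.321 SD, n = 2). Both mutant libraries stood clear of both wild-type ones. The log2 fold change was 1.25 ± 0.36 SE, or 2.37-fold, with an edgeR adjusted p of 0.0460. The call was close to its limit: adjusted p from edgeR was 0.0986 when wild-type replicate 1 was left out, 0.317 for wild-type replicate 2, 0.0645 for mutant replicate 2, 0.0515 with total counts as library size and 0.0517 with a filter on a mean of 2 CPM, and DESeq2 gave 0.142. The log2 change itself stayed between 1.034 and 1.496 when any one library was left out.

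Beyond Hoxd13, on the side of Evx2, 2 further peaks lay over the noncoding RNA Gm31790. The nearer one was at 1.75 and 1.70 CPM in the wild type and at 2.19 and 3.09 CPM in the mutant, without overlap (log2 fold change 0.61 ± 0.38, edgeR adjusted p = 0.371). The farther one overlapped, at 2.72 and 1.81 against 3.10 and 1.45 CPM (0.02 ± 0.41, edgeR adjusted p = 0.988). At Hoxd9, a posterior gene of the limb and lumbar region, the peak over the start printed above lay at 4.02 and 2.63 CPM in the wild type and at 5.41 and 4.73 CPM in the mutant. The mutant libraries were again the higher ones (0.61 ± 0.31, edgeR adjusted p = 0.259). A second peak between Hoxd9 and Hoxd8 overlapped, at 3.17 and 2.53 against 4.197 and 2.90 CPM (0.32 ± 0.34, edgeR adjusted p = 0.637).

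The 2 peaks assigned to Hoxd3, an anterior gene whose span covers Hoxd4, had changes of opposite sign, neither past the threshold. The peak chr2:74715787-74716241, over the start of the antisense RNA Hoxd3os1, lay at 4.02 and 4.28 CPM in the wild type and at 7.60 and 6.75 CPM in the mutant. The libraries of each genotype were close together and the genotypes apart (by 0.79 ± 0.27 SE on the log2 scale, edgeR adjusted p = 0.0887). The peak chr2:74712037-74712431, which begins 44 bp past the Hoxd3 start and also covers the start of the noncoding RNA Gm38462, lay at 3.51 and 2.22 CPM in the wild type and at 2.19 and 1.07 CPM in the mutant (-0.80 ± 0.41, edgeR adjusted p = 0.268). It was the only Hox peak with both mutant libraries below both wild-type libraries, although mutant replicate 1 lay just under wild-type replicate 2.

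**Figure D3:**
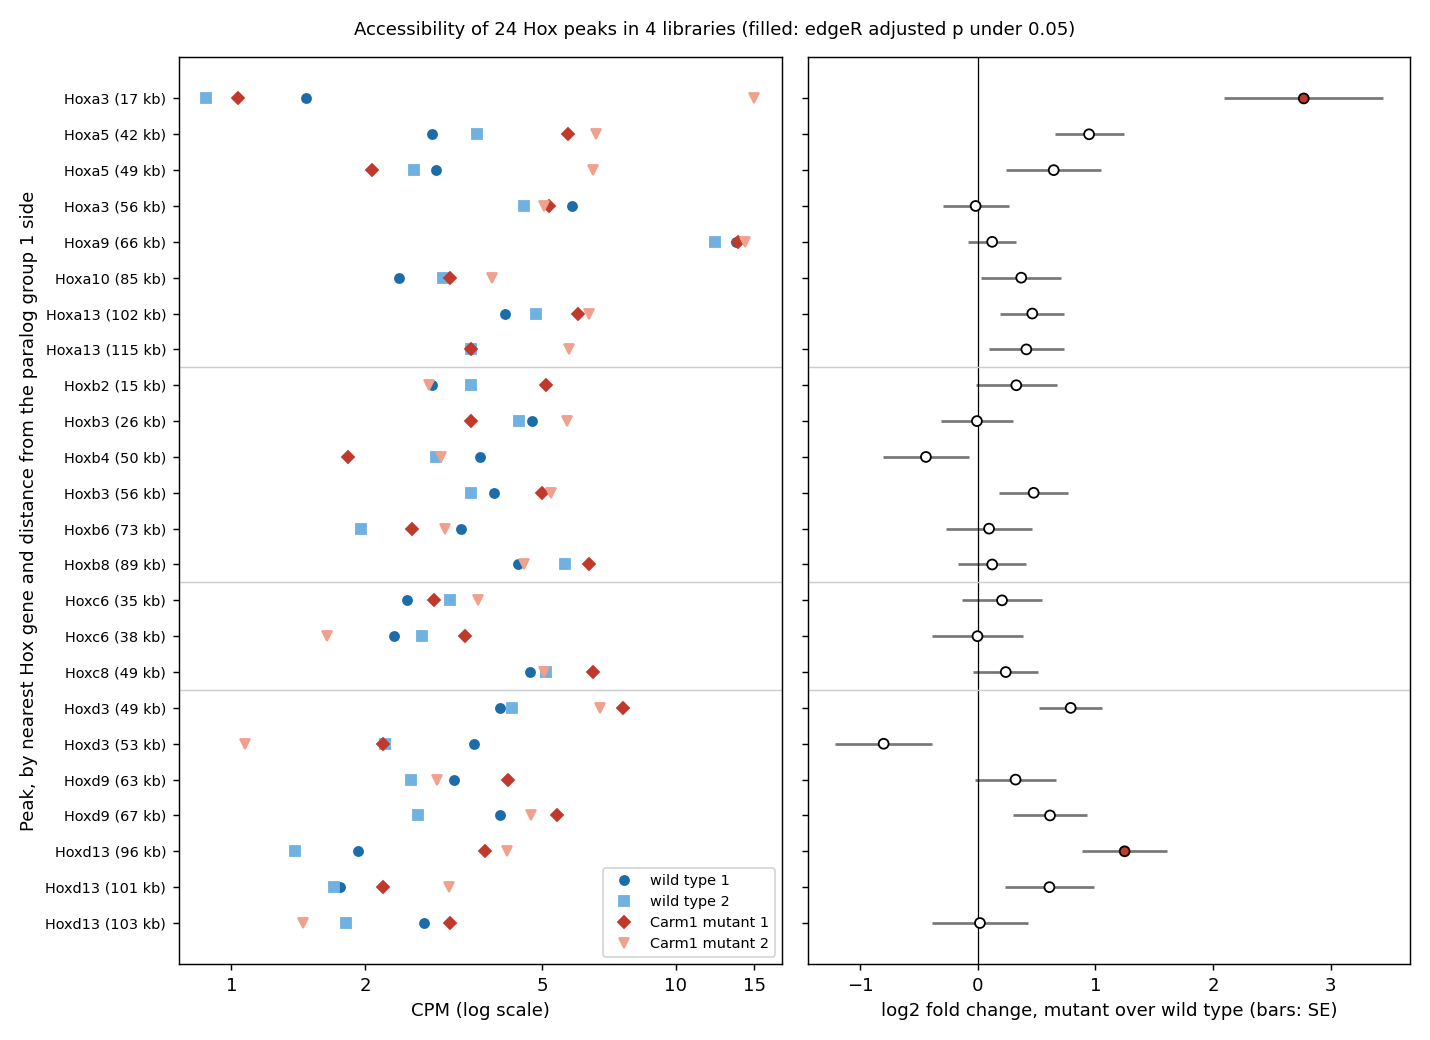
Left, CPM of 24 Hox peaks in the 4 libraries on a log axis, ordered by cluster and by distance from the paralog group 1 side. Right, log2 fold change of mutant over wild type with its SE, filled where the edgeR adjusted p is under 0.05. The filled Hoxa3 point rests on mutant replicate 2 alone, while at the filled Hoxd13 point both mutant libraries lie to the right of both wild-type libraries.

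Over the 25 peaks, 2 passed the test, both higher in the mutant (8%). Over all 87948 peaks, 2683 were higher and 2156 lower, so that the share called was 5.5% in either direction and 3.05% upward, and 2 of 25 is too close to this background to be a result about the Hox peaks. The count was 0 with DESeq2. It rose without mutant replicate 1 and fell when any other library was left out, with no share over all peaks given for those fits. In bulk tissue, more cells with an open site and more opening per cell cannot be told apart in any of these differences. An unadjusted p under 0.05 was reached by 4 of the 25 (16%), against 21.8% of all peaks. The direction was uneven: 20 of 25 Hox peaks (80%) had a log2 fold change above 0, with a median of 0.32. Over all peaks the share was 49.9%, with a median of -0.00069. No test was run on the Hox share, because neighbouring peaks of a cluster are not independent. Without mutant replicate 2 the count was 17 of 25 with a median of 0.34, and without mutant replicate 1 it was 18 of 25. Both mutant libraries lay above both wild-type libraries at 10 peaks, against a background of 25.8% of all peaks, and below them at 1 peak, against a background of 25.7%. At the other 14 the genotypes overlapped. Of the 10 higher peaks, 5 were in Hoxa, 1 in Hoxb, 0 in Hoxc and 4 in Hoxd.

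Counts were also summed over the peaks assigned to each gene by nearest gene end within 50 kb, which gave a value for 17 of the 39 Hox genes. The other 22 had no assigned peak, and the 4 peaks assigned to Hoxb1 all lay outside the Hoxb window, up to 45253 bp away. Because the Hoxa3, Hoxb3 and Hoxd3 spans cover their neighbours, assignment among these is uncertain. None of the 17 genes passed edgeR's test (0 of 17, and 0 with DESeq2), with 387 of 15421 genes called in all (2.51%), and 3 had an unadjusted p under 0.05 (17.6%, as over all genes). These were Hoxd13 (log2 fold change 1.22 ± 0.34, edgeR adjusted p = 0.0754), Hoxa5 (0.79 ± 0.27, edgeR adjusted p = 0.139) and Hoxa3 (1.02 ± 0.39, edgeR adjusted p = 0.183). Of the 17 genes, 16 had a change above 0 (94.1%, against 50.2% of all genes), and Hoxb4 was the exception at -0.47 ± 0.35. With mutant replicate 2 left out that count was 11, and with mutant replicate 1 left out it was 13. The count of genes past the threshold rose when mutant replicate 1 was left out. No share over all genes is given for that fit, so the rise is no result about the Hox genes.

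Summed over a window, the Hoxa peaks gave 44.0 and 40.9 CPM in the wild type and 46.4 and 73.3 CPM in the mutant. The Hoxb sum was 22.8 and 21.8 against 24.3 and 24.2 CPM, and the Hoxd sum 21.1 and 16.6 against 28.4 and 24.2 CPM. In these 3 clusters both mutant libraries were above both wild-type libraries, while in Hoxc, at 9.51 and 10.9 against 12.7 and 10.3 CPM, the genotypes overlapped. The differences of mean log2 CPM were 0.46 for Hoxa, 0.12 for Hoxb, 0.17 for Hoxc and 0.49 for Hoxd, with two-sided exact permutation p-values of 0.333, 0.333, 0.667 and 0.333 (adjusted over the 4 clusters, 0.444, 0.444, 0.667 and 0.444). With 2 libraries against 2, no p under 0.333 can be reached. Without the Hoxa3 peak that was high in one library, the Hoxa sums became 42.5 and 40.0 against 45.4 and 58.3 CPM and the difference 0.32. Leaving out 1 library moved the Hoxa difference to 0.13 (without mutant replicate 2) or 0.79 (without mutant replicate 1). It moved the Hoxc difference to 0.016 without mutant replicate 1, 0.071 without wild-type replicate 1, 0.27 when wild-type replicate 2 and 0.32 when mutant replicate 2 was dropped, and the Hoxd difference to 0.31 without wild-type replicate 2. The Hoxb difference stayed between 0.091 and 0.15.

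Whether the clusters differed from one another in their change cannot be decided with these libraries, since 0.333 is the smallest p that 2 against 2 allow. The difference of log2 changes was 0.34 between Hoxa and Hoxb, 0.29 between Hoxa and Hoxc, -0.03 between Hoxa and Hoxd, -0.05 between Hoxb and Hoxc, -0.36 between Hoxb and Hoxd and -0.32 between Hoxc and Hoxd. The exact permutation p was 0.333, that smallest value, for Hoxb and for Hoxc against Hoxd, where the libraries of the genotypes did not overlap. It was 0.667 or 1 for the other pairs, and 1 for all 6 after adjustment over the pairs. Without wild-type replicate 2 the Hoxc minus Hoxd difference was -0.045. Peaks were also summed by the paralog class of the nearest Hox gene end, which is not strictly position, since the long group 3 genes cover their neighbours. The anterior Hoxa3 peak over Hoxaas3 lay 56.3 kb from the paralog group 1 side, beyond the central Hoxa5 peaks at 42.1 and 49.1 kb. Likewise an anterior Hoxb3 peak at 56.4 kb lay beyond the central Hoxb4 peak at 49.5 kb. The anterior sum was 33.7 and 29.1 CPM in the wild type and 35.6 and 51.4 CPM in the mutant. The central sum was 26.5 and 27.5 against 31.3 and 33.9 CPM, and the posterior sum 37.2 and 33.6 against 45.0 and 46.6 CPM. Both mutant libraries were higher in each class, by 0.45, 0.27 and 0.37 on the log2 scale (exact permutation p = 0.333 in each, and the same after adjustment over the 3 classes). The anterior difference was 0.23 without the Hoxa3 peak of one library, 0.18 without mutant replicate 2 and 0.71 without mutant replicate 1.

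**Figure D4:**
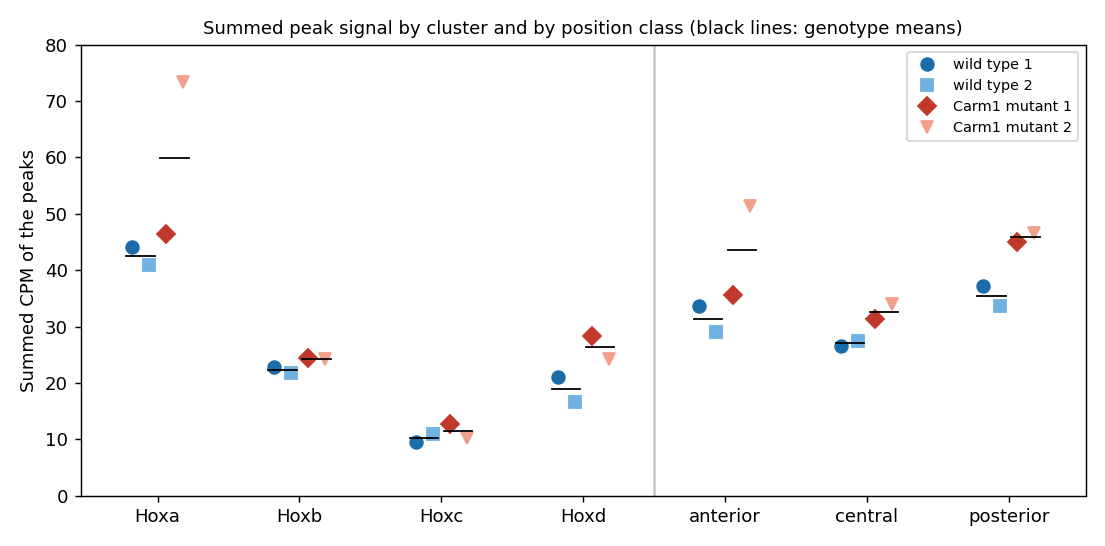
Summed CPM of the Hox peaks in each library, by cluster (left) and by the paralog class of the nearest Hox gene end (right). Black lines are genotype means, and the vertical axis starts at 0. Mutant replicate 2 stands at 73.3 CPM in Hoxa, apart from the other 3 libraries between 40.9 and 46.4 CPM, and Hoxc is the one set in which the genotypes overlap.

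The regulators and cofactors of Hox genes were compared with them at their own gene ends, on the scale of CPM per kb of peak. The strongest gene-end peak of the 12 Hox genes that had one reached a median of 3.51 CPM and 7.68 CPM per kb, against 25.8 CPM and 19.0 CPM per kb over all protein-coding genes with such a peak. The TALE homeodomain proteins of the Meis, Pbx and Pknox families, which bind DNA together with Hox proteins, had a gene-end peak at 9 of 9 genes with a median of 24.0 CPM per kb, led by Pknox1 at 77.5. Polycomb genes had one at 13 of 14, with a median of 19.07 CPM per kb, and Cbx7 was the one without. Trithorax and MLL complex genes had one at 6 of 8 (17.3 CPM per kb), and genes of retinoic acid synthesis, transport and receptors at 8 of 14 (11 CPM per kb). The caudal genes Cdx1, Cdx2 and Cdx4, which act upstream of Hox genes in the trunk, and the cluster neighbours Evx1 and Evx2 were as low. They had a gene-end peak at 2 of 5 and a median of 7.22 CPM per kb. This list is not separate from the Hox windows, because both peaks assigned to Evx2 are also among the 25 Hox peaks. The Evx2 gene-end peak, at 6.23 CPM per kb, is the farther peak beyond Hoxd13, but it is not a gene-end peak of a Hox gene.

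**Figure D5:**
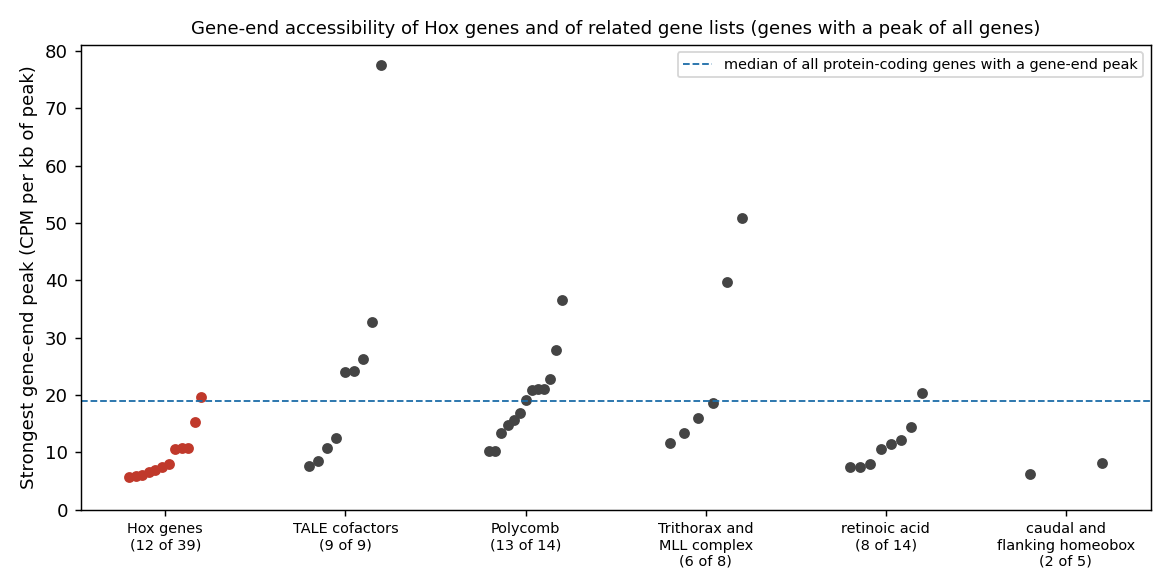
CPM per kb of the strongest peak within 1 kb of either gene end, 1 point per gene that has one, for Hox genes (red) and 5 related gene lists, with the number of such genes of all genes in the list under each label. The dashed line is the median of all protein-coding genes with a gene-end peak, 19.0 CPM per kb, and of the 12 Hox points only that of Hoxb8 at 19.6 lies above it.

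Among these partners, the share of peaks called ran from 0% to 3.90% per list, against 5.5% of all peaks. Counts this small are not read as a result about the lists. Each call lay more than 1 kb from a gene end. The share with a log2 fold change above 0 ran from 54.1% (Polycomb) to 61.9% (Trithorax and MLL) in the first 4 lists. It was 100% of the 6 caudal and Evx peaks, against 80% of Hox peaks and 49.9% of all peaks. These shares are not separate, because the 2 Evx2 peaks are also Hox peaks. The farther Evx2 peak had a log2 fold change of only 0.02, which was -0.019 with total counts as library size. Of 77 peaks assigned to TALE genes, 2 were higher and 1 lower in the mutant (3.90%), and 11.7% had an unadjusted p under 0.05 against 21.8% of all peaks, with a median log2 fold change of 0.08. A peak assigned to Meis2, a Hox cofactor needed in the neural crest, at a distance of 19751 bp, lay at 2.72 and 2.63 CPM in the wild type and at 8.88 and 6.81 CPM in the mutant (log2 fold change 1.55 ± 0.29 SE, edgeR adjusted p = 0.00474). One 4163 bp from Pbx4 rose from 2.04 and 2.06 to 5.23 and 5.17 CPM (1.34, edgeR adjusted p = 0.0189). In both the genotypes stood apart. The Meis2 call held without any one library, while the Pbx4 call was lost without either wild-type library (edgeR adjusted p = 0.0980 and 0.119). Over the whole list the count was 1 without either wild-type library and 8 without mutant replicate 2.

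Of 91 peaks assigned to retinoic acid genes, 1 was called (1.10%), higher in the mutant, and 13 had an unadjusted p under 0.05 (14.3%), with a median log2 fold change of 0.01 over the list. It lies 39239 bp from Rxra, the main cardiac retinoid X receptor, and rose from 2.04 and 1.86 CPM to 8.94 and 12.6 CPM (2.47 ± 0.29, edgeR adjusted p = 0.000212). This call held without any one library. The count over the list rose when any library but wild-type replicate 2 was left out, with no share over all peaks given for those fits. Of 61 Polycomb peaks, 0 were called by edgeR and 0 by DESeq2, with 12 at an unadjusted edgeR p under 0.05 (19.7%, near the 21.8% of all peaks) and a median log2 fold change of 0.05. The edgeR count rose without either mutant library, again with no share over all peaks given. The smallest p was at Ezh1, a catalytic subunit of Polycomb complex PRC2 in cells that no longer divide (log2 fold change 1.14, edgeR adjusted p = 0.0564). Of 21 Trithorax and MLL peaks 0 were called by edgeR or DESeq2 (0 at an unadjusted p under 0.05, median 0.04). The edgeR count rose without mutant replicate 1. Of 6 caudal and Evx peaks 0 were called by either tool (0 at an unadjusted p under 0.05, median 0.27).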

How the data were processed

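ATAC-seq libraries of P14 mouse hearts, 2 wild type and 2 Carm1 mutant, were prepared by a commercial provider, per the labels' protocols. FastQC, Bowtie2 and build mm10 are named, without versions, per the submitters' processing notes. No source used here names the peak caller, read filters, duplicate handling, transposase shift or the making of the common peak set, any of which may alter the counted regions. Raw counts for each peak and library, in 1 table, are what the authors deposited: whole numbers without normalization, per the file headers and values. Counts over peaks carry no strand.

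Peaks were tested in one fit over all 87948 peaks with edgeR 4.0.16 in R 4.3.3 (TMM, filterByExpr, which removed 0 peaks, quasi-likelihood test with genotype as its sole term) and Benjamini-Hochberg adjustment at 0.05. The fit has 2 residual degrees of freedom, with a common biological coefficient of variation of 0.166. The same test was run on counts summed per gene. Sums of CPM were compared by exact permutation tests, two-sided. DESeq2 1.42.0, other scalings, filters, windows and the leaving out of each library served as alternatives. The edgeR fit was also run on simulated counts with the common variation of the data and equal changes in both mutant libraries. That simulation held no library like mutant replicate 2, so it does not bear on peaks high in a single library. Genes came from the RefSeq table of GRCm38.p6. Named peaks are those past the threshold, the 3 strongest and the 2 of smallest p in each cluster, the strongest gene-end peaks and the peak of smallest p in each related list, and the remaining Hox peaks were added after their values were seen. Single values of 2 genes among the members and lists are not reported here, though counts and sums include them. The members and lists were chosen with earlier results of these data known.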

Additional observations from a re-analysis of the deposited data

How the results depend on the processing

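Peak levels of a few CPM and 2 libraries per genotype limit every Hox comparison. The number of Hox peaks past the threshold, 2 in the reported fit, was 1 with total counts as library size, 1 with a filter on a mean of 2 CPM and 0 with DESeq2. That number also rose or fell when single libraries were left out. For these alternatives no share over all peaks is given, so their counts are no result about the Hox peaks. The number stayed at 2 with no extension of the windows (22 peaks) and with an extension of 50 kb (32 peaks). The number of Hox genes past the threshold, 0 in the reported fit, rose when mutant replicate 1 was left out. The number of Hox peaks with a change above 0 lay between 17 and 21 over all settings, and that of Hox genes between 11 and 16 of 17, checks added after seeing the data.

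Replicate numbers are shared across genotypes in the labels, but nothing says that they mark a common litter or day. Across all peaks, the difference of replicate 1 minus replicate 2 in the wild type correlated at 0.108 with that in the mutant. With this correlation and only 2 pairs, the numbers were not used as pairs. A fit with the replicate block called 4 Hox peaks. It added the outer Hoxa5 peak (edgeR adjusted p = 0.0207) and the Hoxd3 peak over Hoxd3os1 (0.0422) to the 2 of the reported fit. It also called 3 Hox genes, 5 TALE peaks, 5 Polycomb peaks and 2 retinoic acid peaks. No share over all peaks or all genes is given for this fit. Its counts are therefore no result about the Hox peaks, the Hox genes or the related lists. The same fit gave the Hoxa3 peak over Gm15050, high in mutant replicate 2 alone, an edgeR adjusted p of 1.57e-06.

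Among the related lists, the TALE count of 3 became 0 and the retinoic acid count of 1 became 0 when only peaks within 1 kb of a gene end were kept, and the retinoic acid count was 2 with total counts as library size. With each library left out, the counts ranged from 1 to 8 for TALE, 0 to 4 for Polycomb, 0 to 1 for Trithorax and MLL and 1 to 7 for retinoic acid. No caudal or Evx peak was called under any of these settings.

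The signs of 3 differences between clusters changed. With windows extended by 50 kb, Hoxa minus Hoxd was 0.023 and Hoxb minus Hoxc 0.10 on the log2 scale. With each library left out, Hoxa minus Hoxc ranged from -0.19 to 0.77, Hoxa minus Hoxd from -0.47 to 0.42 and Hoxb minus Hoxc from -0.20 to 0.10. The cause was not tested.

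Single peaks changed sign mainly when a library was left out. The log2 ranges were -0.17 to 3.68 at the Hoxa3 peak over Gm15050, -0.19 to 0.17 at the other Hoxa3 peak, -0.40 to 1.25 at the Hoxa5 start, -0.18 to 0.70 at Hoxb2, -0.41 to 0.31 at the Hoxb3 peak near 96341647, -0.23 to 0.51 at Hoxb6, -0.15 to 0.34 at Hoxb8, -0.61 to 0.42 at the weaker Hoxc6 peak and -0.63 to 0.46 at the farther peak beyond Hoxd13. That last peak was also at -0.019 with total counts as library size and at -0.035 with the replicate block.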
